A study of Mus musculus with 6 samples.

Results

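C1q is the recognition protein of the classical complement pathway, and 9 genes of that pathway were followed from C1q to the receptors of its cleavage products in mouse soleus, a slow calf muscle. The set holds the C1q chains C1qa, C1qb and C1qc, the proteases C1ra and C1s1, the components C3 and C4b, and the receptors C3ar1 and C5ar1. These 9 genes, of 16247 in the deposited table of normalized counts, were selected on earlier values of the same comparison, that of mice heterozygous for the Mustn1 KO-first allele (HET) with wild-type littermates (WT). Their own HET and WT levels are therefore a description with no test. All 9 were among the 14696 genes with enough reads to enter a test, and tests are given only for other genes set beside them (further complement genes, relatives of C1q and cell type markers), where their reads allowed one. Those lists too were chosen with earlier results of these data known, so their tests are not independent of those results.

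RNA-seq was done on soleus from 3 HET and 3 WT mice, with 1 library per mouse. All 6 mice were C57BL6/N and 8 weeks old, and the labels name no treatment. The KO-first allele (tm1a) is present in the whole body and places a trapping element with lacZ and a neomycin resistance gene after the first exon of Mustn1, the gene of a small protein of muscle and arteries. HET mice keep 1 intact copy. The study describes that the splice trap of the allele can be bypassed under some conditions, which limits it as a model. Libraries held between 26790075 and 50368796 reads on genes. Reads on Mustn1 were 471, 452 and 574 in HET and 691, 817 and 1504 in WT, and the gene fell by 0.96 on the log2 scale (SE 0.15, adjusted p = 0.0452 in edgeR's quasi-likelihood test). Without HET1, HET3, WT1 or WT2 its adjusted p lay between 0.0659 and 0.28. The labels give all 6 mice as male, whereas Xist had 3858 to 9154 reads per library and the Y-linked Ddx3y, Kdm5d, Uty and Eif2s3y together had 0 to 12. The slow fiber genes that define soleus were high in both genotypes, with sums between 95300 and 108000 CPM (read counts scaled to library size), and their median log2 fold change was -0.06.

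Complement is a cascade of proteases in blood and tissue fluid that tags cells and debris for uptake. C1q binds its target and activates C1r, which cleaves C1s, and C1s in turn cleaves C4 and C2 to form the convertase that splits C3. The small fragments C3a and C5a signal through the receptors encoded by C3ar1 and C5ar1, mostly on myeloid cells. The liver makes most circulating complement, but C1q comes mainly from macrophages, and fibroblasts and adipocytes are known to make C1r, C1s, C3, C4 and factor D.

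The C1q chain genes lie side by side on the minus strand of chromosome 4 (GRCm38), in the order C1qb (ENSMUSG00000036905, chr4:136880129-136886187), C1qc (ENSMUSG00000036896, chr4:136889804-136893065) and C1qa (ENSMUSG00000036887, chr4:136895917-136898803), within 18.7 kb. C1ra (ENSMUSG00000055172, chr6:124512405-124523443, plus strand) and C1s1 (ENSMUSG00000038521, chr6:124530345-124542359, minus strand) are neighbours as well, with 6.9 kb between them. C3 (ENSMUSG00000024164, chr17:57203970-57228136), C4b (ENSMUSG00000073418, chr17:34728380-34743882), C3ar1 (ENSMUSG00000040552, chr6:122847138-122856161) and C5ar1 (ENSMUSG00000049130, chr7:16246743-16259540) are all on the minus strand.

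Promoters, taken as the 250 bases before the transcription start in RefSeq (GRCm38.p6), were listed for 7 of the 9 genes, with 8 promoters in all since C1s1 has a second start. C1qa and C4b were not matched. The RefSeq start can lie inside the span of the counted gene given above. The stretches of C1qc, C1ra, C5ar1, a start of C1s1 and, by a few bases, C3ar1 therefore overlap those spans. All distances below are from the RefSeq start. Each promoter was searched on both strands for GAGGAA, the core bound by the myeloid factor PU.1, for TTNNGNAA, the C/EBP consensus, for TGANTCA, the AP-1 site, and for TATAAA, the TATA box. The promoters of C1qb and C1qc are printed 5′ to 3′ because they were the 2 of 8 with GAGGAA, shown in capitals on either strand. Of all 32851 mouse promoters in the table, 23.3% hold it. The C3 promoter is printed because it alone held 3 matches to TTNNGNAA, shown in capitals, 70, 58 and 45 bases before the start.
C1qb, chr4:136886201-136886450, minus strand: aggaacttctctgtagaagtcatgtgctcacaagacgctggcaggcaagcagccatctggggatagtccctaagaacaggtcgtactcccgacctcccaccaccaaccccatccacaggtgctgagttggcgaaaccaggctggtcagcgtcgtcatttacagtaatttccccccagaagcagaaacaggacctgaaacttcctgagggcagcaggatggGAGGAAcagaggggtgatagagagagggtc
C1qc, chr4:136892915-136893164, minus strand: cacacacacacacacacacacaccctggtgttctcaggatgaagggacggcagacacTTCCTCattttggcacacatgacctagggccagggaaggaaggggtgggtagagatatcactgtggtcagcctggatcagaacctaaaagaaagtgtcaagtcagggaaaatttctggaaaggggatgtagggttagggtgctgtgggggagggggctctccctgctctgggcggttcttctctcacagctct
C3, chr17:57228137-57228386, minus strand: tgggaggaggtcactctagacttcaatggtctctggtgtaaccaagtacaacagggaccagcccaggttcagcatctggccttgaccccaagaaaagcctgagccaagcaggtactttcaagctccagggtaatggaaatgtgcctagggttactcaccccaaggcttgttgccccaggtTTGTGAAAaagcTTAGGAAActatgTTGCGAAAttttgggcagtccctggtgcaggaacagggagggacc
The PU.1 letters began 30 bases before the start in C1qb and 193 bases before it, on the other strand, in C1qc. TTNNGNAA was held by 6 of the 8 promoters (those of C1qc, C1ra, C1s1 at both starts, C3 and C5ar1) and by 36.8% of all promoters. C3ar1 held TGANTCA, found in 6.75% of all promoters, 22 bases before its start, and TATAAA, found in 12.4%, 235 bases before it. No match overlapped a match to another motif. These matches describe letters and were not tested as binding sites.

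C1qa, C1qb and C1qc encode the A, B and C chains that assemble into 1 C1q protein. All were higher in each HET library than in any WT library, as were 7.55% of all genes tested. C1qa was at 8.41, 8.68 and 8.32 CPM in HET1 to HET3 and at 3.01, 2.77 and 3.26 CPM in WT1 to WT3. The HET values of C1qa were closer to each other (coefficient of variation 2.23%) than counting error alone would give (5.83%), and the genotypes did not overlap. Its mean was 8.47 ± 0.189 CPM in HET and 3.01 ± 0.248 CPM in WT (SD, n = 3 each), a log2 fold change of 1.48 (SE 0.14), or 2.8-fold. C1qb was at 7.0, 7.42 and 7.93 CPM in HET and at 2.24, 2.7 and 3.30 CPM in WT, with a log2 fold change of 1.43 (SE 0.18). C1qc was at 6.38, 5.70 and 8.27 CPM in HET and at 1.67, 3.05 and 2.90 CPM in WT, with a log2 fold change of 1.41 (SE 0.24). C1qc thus had the widest spread of the chains, and its lowest HET library still lay above its highest WT library. Behind these values stood between 153 and 365 reads per chain in HET and between 50 and 163 reads in WT.

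The balance between the chains was much the same in both genotypes. Scaled to exonic length, C1qa made up 44.1% of the summed C1q level in HET and 43.4% in WT, C1qb 37.0% and 37.3%, and C1qc 18.9% and 19.3%, as means over 3 libraries. Over single libraries the share of C1qc went from 14.9% in WT1 to 23.5% in WT2, with the HET libraries in between at 18.5%, 16.3% and 21.9%. The spread within WT was therefore wider than the distance between the genotypes for every chain.

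**Figure D1:**
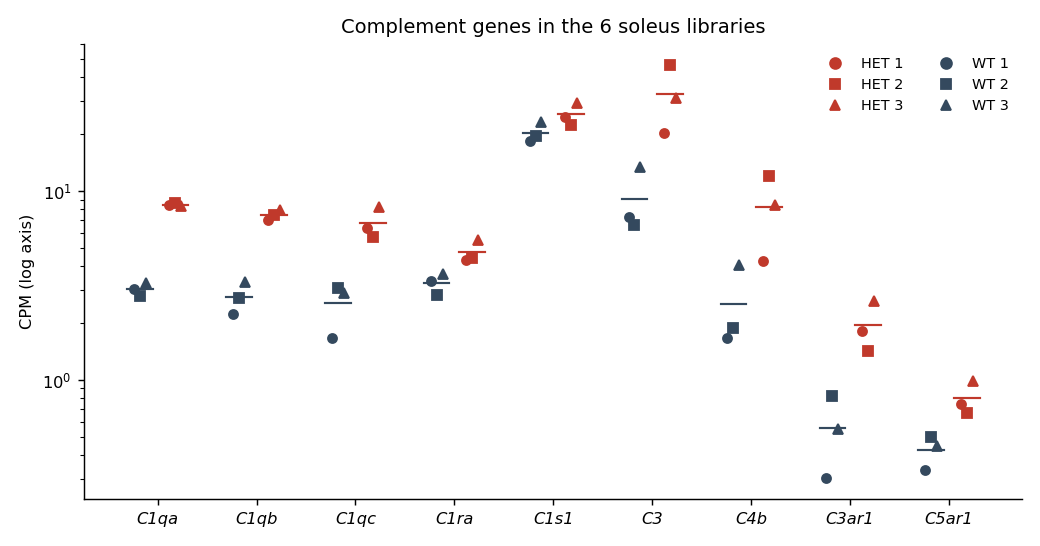
CPM on a log axis of the 9 complement genes in each library, with WT in dark blue and HET in red, marker shapes for mice 1 to 3 and a bar at each mean. HET lay above WT in every library for 8 genes, as for 7.55% of all 14696 genes tested, and the 9 were selected on this comparison. Only C1s1 overlapped, with HET2 at 22.5 CPM below WT3 at 23.2 CPM.

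**Figure D2:**
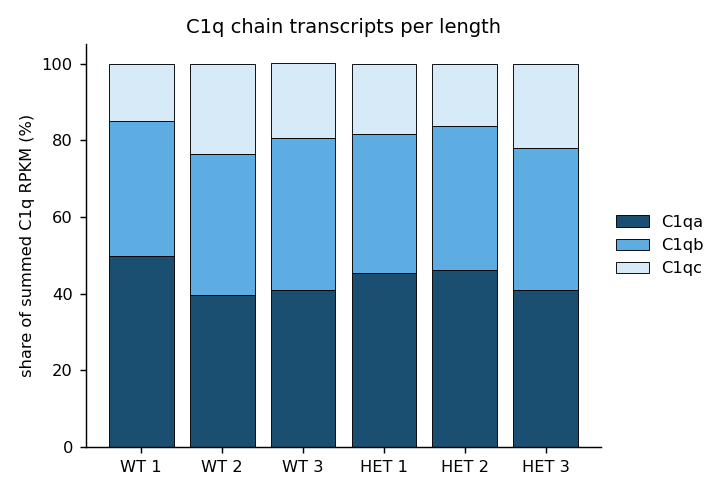
Share in percent of each C1q chain in the summed level per length (RPKM, the CPM per kilobase of exon) of the chains, 1 bar per library. C1qa held between 39.6% and 49.7%, C1qb between 35.4% and 39.6%, and C1qc between 14.9% and 23.5%, with no order by genotype.

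C1ra and C1s1 encode the serine proteases that C1q carries, and their differences were the smallest of the set. C1ra was at 4.33, 4.43 and 5.51 CPM in HET and at 3.34, 2.80 and 3.65 CPM in WT, a log2 fold change of 0.54 (SE 0.18). Its genotypes did not overlap, but HET1 and WT3 were 4.33 and 3.65 CPM. C1s1 was at 24.8, 22.5 and 29.2 CPM in HET and at 18.4, 19.6 and 23.2 CPM in WT, a log2 fold change of 0.32 (SE 0.13). It was the only 1 of the 9 whose genotypes overlapped, and without HET2 and WT3 together its log2 fold change was 0.52. Both genes had their highest HET value in HET3 and their highest WT value in WT3. Per length, C1s1 was between 4.84 and 6.67 times C1ra, at 5.45, 4.84 and 5.04 in HET and 5.24, 6.67 and 6.05 in WT. The near copies C1rb and C1s2 had 0 reads and between 0 and 5 reads per library, and since reads common to a gene and its copy were not counted, how many reads C1ra and C1s1 lost in this way was not measured. Gm16567, which lies antisense to C1s1, had at most 3 reads in a library, and the counting used strand.

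C3, the component on which all complement pathways meet, and C4b, the mouse C4 cleaved by C1s, had large mean differences and the widest spread. C3 was at 20.4, 46.7 and 31.0 CPM in HET and at 7.26, 6.63 and 13.4 CPM in WT. The genotypes did not overlap, yet C3 varied by more than 2 times among HET mice, from HET1 to HET2, and among WT mice, from WT2 to WT3. Its log2 fold change was 1.82 (SE 0.41), between means of 32.7 ± 13.3 CPM and 9.11 ± 3.76 CPM (SD, n = 3 each). C4b was at 4.25, 12 and 8.39 CPM in HET and at 1.67, 1.88 and 4.05 CPM in WT. HET1 was only just above WT3 for this gene, and HET2 and WT3 were again the highest libraries of their genotype. The log2 fold change of C4b was 1.64 (SE 0.47). Reads of C4b are uncertain in part, because its near copy C4a, with between 2 and 11 reads per library, shares sequence with it and reads that align to both were not counted. Mir6978, inside C3, had 0 reads.

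Markers of adipocytes moved with C3 and C4b from library to library. The 6 adipocyte markers (Adipoq, Plin1, Cidec, Lep, Retn and Ucp1) summed to 26.4, 73.6 and 39.5 CPM in HET and to 7.93, 7.94 and 47.0 CPM in WT. HET2 and WT3 were the highest of their genotype for this sum as for C3 and C4b. WT3, however, had a higher adipocyte sum than HET1 and HET3 and lower C3, at 13.4 CPM against 20.4 and 31.0 CPM. Without HET2 and WT3 the log2 fold changes were 1.90 for C3 and 1.85 for C4b, but the median of the adipocyte markers was then 2.11 (0.95 with all libraries). The part of adipocytes in the C3 and C4b levels was not tested. In whole muscle, more cells of a type and more RNA per cell cannot be told apart, here and for every gene below. The ratio of C3 to C4b per length stayed between 3.67 and 5.31 in all 6 libraries. Liver, the main source of plasma C3, left little RNA in any library, since 3 of the 7 hepatocyte markers (Apoa1, Ttr and Serpina1a) had 0 reads in every library and the list summed to at most 0.936 CPM.

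**Figure D3:**
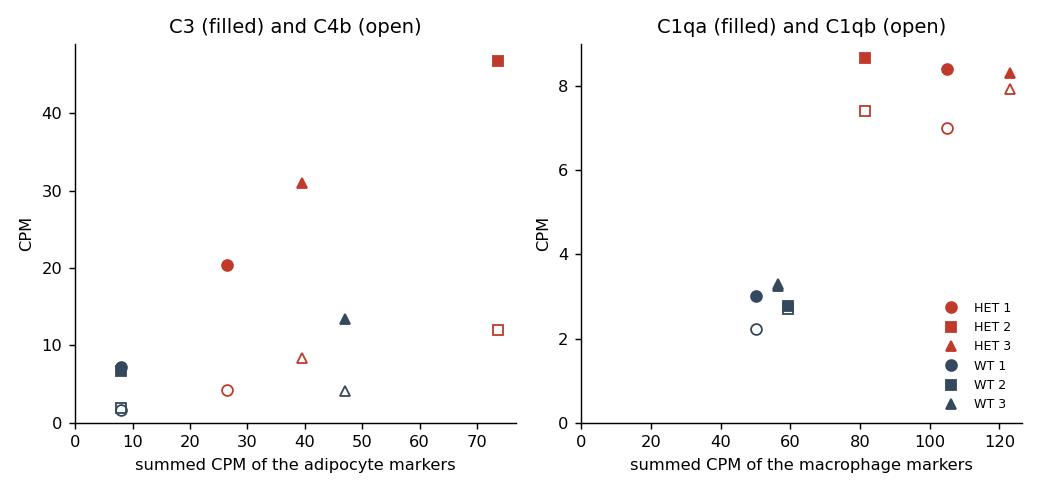
Left, CPM of C3 (filled) and C4b (open) against the summed CPM of 6 adipocyte markers, and right, CPM of C1qa (filled) and C1qb (open) against the summed CPM of 14 macrophage markers, with 1 marker per library. On the left HET2 and WT3 lay furthest right within their genotype and highest in C3 and C4b, and on the right the 3 HET libraries lay at 81.5 to 123 CPM of macrophage markers and the 3 WT libraries at 50.3 to 59.3 CPM.

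C3ar1 and C5ar1 encode the receptors for the fragments C3a and C5a, and were the least abundant of the set per length. C3ar1 was at 1.82, 1.42 and 2.60 CPM in HET and at 0.301, 0.816 and 0.547 CPM in WT, from between 38 and 114 reads in HET and between 9 and 27 reads in WT. The lowest HET library was above the highest WT library, and the log2 fold change was 1.82 (SE 0.37). C5ar1 was at 0.748, 0.671 and 0.98 CPM in HET and at 0.334, 0.497 and 0.446 CPM in WT, a log2 fold change of 0.91 (SE 0.34). Its WT spread (19.5%) was no wider than counting error (26.9%), with 10, 14 and 22 reads in the WT libraries, so that a difference between these WT mice was not detectable at this depth. Per length the ratio of C3ar1 to C5ar1 was 1.45, 1.26 and 1.58 in HET and 0.537, 0.981 and 0.733 in WT, so that C3ar1 was the higher of the pair in all 3 HET libraries and C5ar1 in all 3 WT libraries, by little in WT2. Both receptors were highest in HET3. HET3 was also the library with the most reads on the neutrophil genes S100a9 (56, against at most 7 elsewhere) and Retnlg (15, against 0 elsewhere), and the part of neutrophils in these receptor levels was not tested. S100a8 and Mmp8 also had their most reads in HET3 (16 and 13), whereas Cxcr2 had 3 in both HET3 and WT2 and Ly6g had 0 in every library. Csf3r, the only neutrophil marker with enough reads for a test, was higher in HET1 (4.75 CPM) than in HET3 (4.33 CPM). Its log2 fold change was 0.05 (SE 0.16). The neutrophil list as a whole, led by Csf3r, summed to between 3.99 and 6.72 CPM in HET and between 4.35 and 4.60 CPM in WT.

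Levels of different genes were compared per length, as RPKM. In WT, C1s1 was highest (6.52, range 5.88 to 7.4 over 3 libraries), followed by C1qa (2.90, 2.66 to 3.14), C1qb (2.52, 2.06 to 3.04), C3 (1.77, 1.29 to 2.61), C1qc (1.32, 0.866 to 1.58), C1ra (1.10, 0.94 to 1.22), C4b (0.445, 0.294 to 0.711), C5ar1 (0.166, 0.13 to 0.193) and C3ar1 (0.129, 0.0699 to 0.189). Only C1s1 over C1qa, C1ra over C4b and C4b over C5ar1 were neighbours in this order without overlap. In HET, C1s1 (7.2 to 9.32) and C1qa (8.00 to 8.35) had the same mean of 8.15 RPKM, and C1qb (6.43 to 7.29), C3 (3.96 to 9.09), C1qc (2.95 to 4.28), C1ra (1.45 to 1.85), C4b (0.746 to 2.11), C3ar1 (0.329 to 0.603) and C5ar1 (0.261 to 0.381) followed. Of these neighbours, C1qc over C1ra and C4b over C3ar1 did not overlap, and C1qa lay above C1qb in every HET library. The protease gene C1s1 was thus above the C1q chains in WT and level with C1qa in HET.

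Over the 9 genes, the log2 fold changes lay between 0.32 and 1.82 with a median of 1.43, where all 14696 genes tested had a median of -0.02 and 45.6% lay above 0. HET lay above WT in every library for 8 of the 9, against 7.55% of all genes. HET lay below WT in every library for 0 of the 9, against 6.02% of all genes. C1qa and C1qb passed an adjusted p of 0.05 in edgeR, with a background of 0.143% of genes called higher and 0.0068% called lower. With DESeq2, 5 of the 9 (C1qa, C1qb, C1qc, C3 and C3ar1) were called higher, against 1.51% of 14409 genes, and 0.0555% of genes were called lower. With limma-voom 1 was called, C1qa, against 0.0204% of genes called higher and 0% called lower. Because this same comparison chose the genes, these counts are given as they stand and nothing is read from them. The calls changed when 1 mouse was left out, which also lowers the power of the test, and the 2 were not told apart. In all, 0 genes of the whole table passed edgeR's threshold without HET1, HET3, WT1 or WT2, where between 581 and 880 genes had an unadjusted p under 0.05 and were higher and between 169 and 375 were lower. Without WT3, 77 of 14838 genes passed as higher and 3 of the 9 were called.

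Other complement genes were compared to see whether the rest of the cascade differed too. Of 47 complement genes outside the set, 25 had enough reads for a test, and edgeR called 0 of them, while 6 had an unadjusted p under 0.05 and were higher and 0 were lower (background 5.76% higher and 2.0% lower). DESeq2 called 3, Itgb2 and Serping1 among them, and limma-voom called 0. Their median log2 fold change was 0.37, and 0.23 without HET2 and WT3, with 19 above 0 and 6 below. The highest value was among the receptors and C1q-binding proteins, whose median was 0.38 over 7 tested genes. Itgb2, the shared beta chain of complement receptors 3 and 4, was at 2.40, 2.98 and 3.28 CPM in HET and 0.803, 1.35 and 0.628 CPM in WT (log2 fold change 1.67, SE 0.30, adjusted p = 0.0785 in edgeR). Its alpha chain partners Itgam and Itgax had log2 fold changes of 1.53 (SE 0.48) and 1.19 (SE 0.47). Both had every HET library above every WT library, but at most 1.18 CPM, and their adjusted p was 0.344 and 0.539. Itgam, Itgax and Serping1 are named after their values were seen. Vsig4, a receptor of tissue macrophages for C3 fragments, had 12, 1 and 24 reads in HET and 0 in each WT library, too few for a test. Cd93, once described as a C1q receptor and abundant in endothelium, had a log2 fold change of -0.03 (SE 0.16), whose sign turned to 0.16 without WT2, and Calr, which encodes the C1q-binding chaperone calreticulin and had the highest level per length of this list, had 0.17 (SE 0.10).

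Among the regulators, Serping1, the C1 inhibitor that removes C1r and C1s from C1q, was at 47.5, 51.6 and 50.7 CPM in HET and 25.1, 33.6 and 42.1 CPM in WT (0.57, SE 0.16, adjusted p = 0.277 in edgeR). It had HET above WT in every library, and it passed the threshold without WT3, at adjusted p = 0.0453. The inhibitor of the membrane attack complex Cd59a had the lowest value (-0.19, SE 0.11, adjusted p = 0.788) and the highest level per length of the list. The median over the 9 tested regulators was 0.05.

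In the alternative pathway (median 1.07 over 2 tested genes), Cfd, which encodes the adipocyte protease factor D (adipsin), was at 46.8, 156 and 65.3 CPM in HET and 20.1, 17.3 and 55.2 CPM in WT, with the same high libraries, HET2 and WT3, as C3 and the adipocyte markers. Its log2 fold change was 1.52 (SE 0.72, adjusted p = 0.768), and 1.60 without those libraries. They were left out for their high adipocyte markers after the data were seen. That choice by itself narrows the spread of an adipocyte gene, so no test of Cfd is given for it. Cfp, properdin, was nearly even within genotypes, at 4.06, 3.65 and 3.81 CPM against 2.47, 2.48 and 2.49 CPM, with a log2 fold change of 0.63 (SE 0.17) and an adjusted p of 0.24. Cfb, the factor B on which this pathway turns, had at most 2 reads in a library. In the lectin and initiation list (median 0.42 over 5 tested genes), Masp1, a protease of the lectin pathway and the most expressed of the list, was at 18.3, 14.3 and 19.3 CPM in HET and 16.9, 13 and 14.9 CPM in WT (0.22, SE 0.14). Fcna, a ficolin of macrophages, had the highest value of the list (0.99, SE 0.45, adjusted p = 0.651), from at most 1.04 CPM. The lectin pathway genes Fcnb, Mbl1 and Mbl2 had no read in any library.

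Of the terminal pathway, only C7 (0.67, SE 0.39) and C8g (-0.38, SE 0.29) of 7 genes could be tested, and neither passed the threshold (median 0.15). Hc, the mouse gene for C5, from which the ligand of the C5ar1 product is cut, had at most 5 reads in a library.

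**Figure D4:**
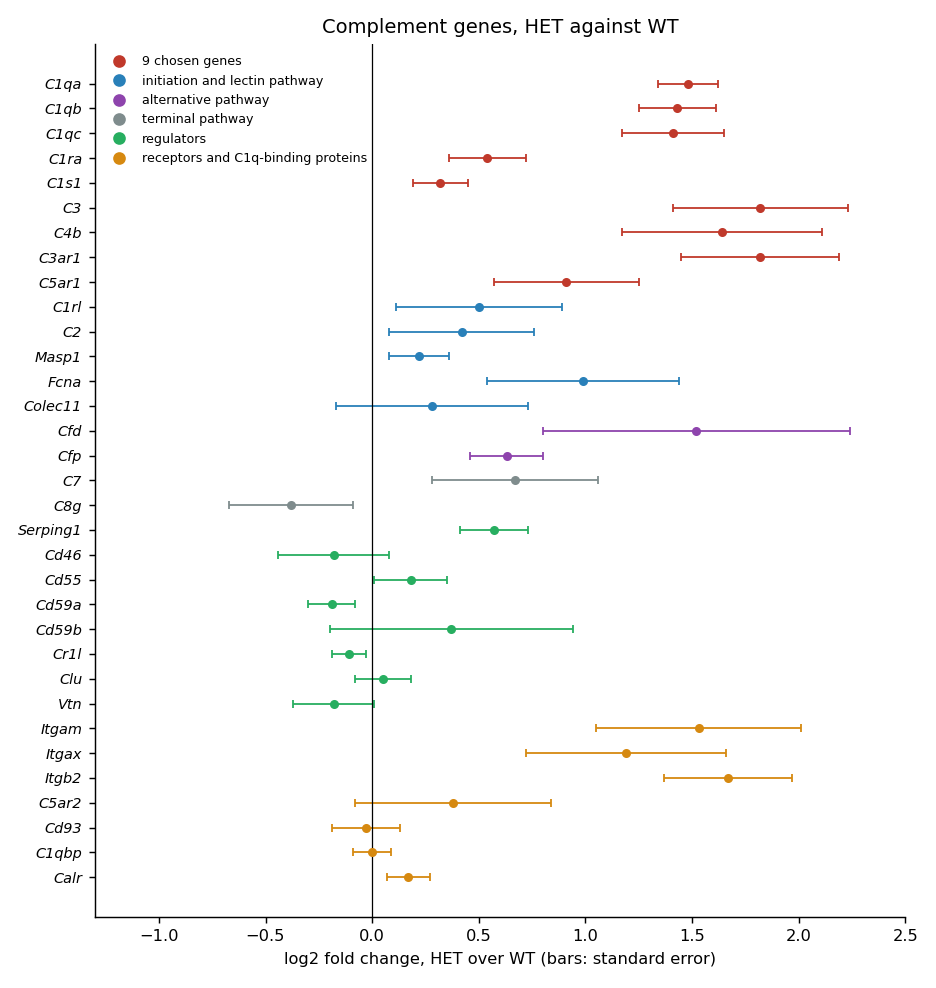
Log2 fold change of HET over WT with its standard error for the 9 chosen genes (red) and for 24 other complement genes that could be tested, by list. The chosen genes lay between 0.32 and 1.82, and the others between -0.38 (C8g) and 1.67 (Itgb2), with no gene of the other lists past the threshold in edgeR.

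Genes that carry a C1q domain but take no part in complement were looked at for a pattern of the protein family. Of 26 such genes 17 could be tested, with a median log2 fold change of 0.48 and 14 above 0. At an unadjusted p under 0.05, 7 were higher and 1 was lower (background 5.76% higher and 2.0% lower). Mmrn1, which encodes the platelet and endothelial protein multimerin, was the only 1 called by edgeR (0.143% of all genes called higher), where DESeq2 called 4 (1.51%) and limma-voom 0 (0.0204%). It rose from 0.602, 0.958 and 1.5 CPM in WT to 4.38, 5.03 and 3.28 CPM in HET (log2 fold change 2.0, SE 0.31, adjusted p = 0.0473). That call was lost without any 1 library other than WT3, at adjusted p between 0.106 and 0.137, and with limma-voom, non-robust dispersion or the GC trend removed, at adjusted p between 0.0646 and 0.0948. The lowest value was that of C1qtnf9 (-0.30, SE 0.12, adjusted p = 0.577). Adipoq, adiponectin, was again highest in HET2 and WT3, at 26.1 and 14.2 CPM.

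The genes nearest in profile to the C1q chains were sought by the root mean square difference of centred log2 CPM over the 6 libraries, which includes the genotype difference. Outside the 9, the nearest were Csf1r (0.125), Fyb (0.129), Lyz2 (0.136), Ccl9 (0.146) and Folr2 (0.153), where the median gene stood at 0.77. Csf1r is the growth factor receptor of macrophages, Fyb an adaptor of blood cells, Lyz2 the myeloid lysozyme, Ccl9 a macrophage chemokine and Folr2 a folate receptor of resident macrophages. Lyz2 was at 29.8, 26.9 and 37.9 CPM in HET and 11.4, 13.4 and 13.9 CPM in WT, and Ccl9 at 4.7, 3.47 and 4.95 CPM in HET and 1.1, 1.6 and 1.78 CPM in WT. The log2 fold changes were 1.29 (SE 0.14) for Lyz2, 1.39 (SE 0.20) for Csf1r, 1.54 (SE 0.24) for Ccl9, 1.54 (SE 0.26) for Folr2 and 1.53 (SE 0.36) for Fyb. Nearness to profiles that were chosen for a higher level in HET fixes this direction, so these values are a description with no test.

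Within the set, the distance to the mean chain profile was 0.051 for C1qb, 0.158 for C1qa and 0.18 for C1qc, which make up that mean, then 0.334 for C5ar1, 0.377 for C3ar1, 0.473 for C3, 0.489 for C1ra, 0.531 for C4b and 0.57 for C1s1. Measured only on deviations from the genotype means, which leave out the HET to WT difference, C1s1 was at 0.087 and C5ar1 at 0.126, nearer to the chains than the median gene at 0.217. C1ra was at 0.176. C3 (0.432), C4b (0.52) and C3ar1 (0.343) were further away than the median gene. The chains C1qa (0.157) and C1qc (0.18) were themselves further from their mean than C1s1 and C5ar1, with 15.5% and 27.6% of genes tested nearer. The order thus changed with the genotype difference removed, and C1s1 went from the last place to the next after C1qb. On this measure 1.29% of genes tested lay nearer than C1s1, 5.67% nearer than C5ar1 and 25.4% nearer than C1ra. A gene with little spread within genotypes can come near whatever its pattern, so nearness here does not show a shared course.

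Macrophages make most tissue C1q. Of their 14 markers, edgeR called 3 higher in HET, DESeq2 6 and limma-voom 1, and 11 were higher at an unadjusted p under 0.05. The shares of all genes called higher were 0.143%, 1.51% and 0.0204%, and 5.76% were higher at that unadjusted p. All 14 could be tested and none was at 0. Their median log2 fold change was 1.2 with 13 above 0. Those called by edgeR were Lyz2 (adjusted p = 0.0147), Csf1r (adjusted p = 0.0452) and Adgre1, the F4/80 antigen. The list was chosen with earlier results of these data known, and Lyz2 and Csf1r are also among the genes nearest to the C1q chains. These calls are therefore a description and not independent support. Adgre1 was at 4.25, 2.91 and 4.49 CPM in HET and 0.97, 1.45 and 1.38 CPM in WT (1.61, SE 0.25, adjusted p = 0.0452). None of these 3 passed without HET1, HET3, WT1 or WT2, at adjusted p between 0.0518 and 0.279, nor did Csf1r without HET2, at adjusted p = 0.0778. With limma-voom, non-robust dispersion or the GC trend removed, Csf1r and Adgre1 missed the threshold, at adjusted p between 0.0565 and 0.0852. Mertk, a receptor for the uptake of dead cells, had -0.10 (SE 0.19), and Mrc1, the mannose receptor, had 0.33 (SE 0.26). The list summed to 105, 81.5 and 123 CPM in HET and 50.3, 59.3 and 56.6 CPM in WT, and its part in the C1q levels was not tested.

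Fibroblast markers, of cells that make C1r, C1s and C3, summed to between 2760 and 3870 CPM in HET and between 1330 and 2140 CPM in WT. All 13 were tested, all lay above 0 with a median of 0.60, and Pi16, which marks a fibroblast progenitor, rose (1.06, SE 0.15, adjusted p = 0.0452), a call that held without WT3 but was lost without any other 1 library, at adjusted p between 0.111 and 0.266, and with those 3 other fits, at adjusted p between 0.0606 and 0.0926. DESeq2 called 5 of the fibroblast markers, limma-voom 0, and 11 were higher at an unadjusted p under 0.05. Beside these and the counts below, the shares of all genes called higher were 0.143% with edgeR, 1.51% with DESeq2 and 0.0204% with limma-voom. At an unadjusted p under 0.05, 5.76% of all genes were higher and 2.0% lower. Tenocyte markers had a median of 1.04 over 7 genes and summed to between 356 and 613 CPM in HET and between 118 and 288 CPM in WT, and 0 were called by edgeR or limma-voom, 1 by DESeq2 and 5 at an unadjusted p under 0.05. Mast cell markers had a median of 1.99 over 5 tested genes, summed to between 6.09 and 8.27 CPM in HET and between 2.84 and 4.43 CPM in WT, and 0 were called by edgeR or limma-voom, 4 by DESeq2 and 4 at an unadjusted p under 0.05. Endothelial (median -0.01) and red blood cell markers (-0.24) had summed levels that overlapped between the genotypes. Smooth muscle and pericyte markers had a median of 0.06 and summed to between 1200 and 1320 CPM in HET and between 1340 and 1480 CPM in WT. Rgs5, the most abundant of them, was the only 1 lower in every HET library. It was at 574, 494 and 642 CPM in HET and 719, 760 and 666 CPM in WT (-0.33, SE 0.11, adjusted p = 0.385 in edgeR). Of the endothelial, red blood cell, smooth muscle, slow fiber, adipocyte, neutrophil and hepatocyte lists, 0 genes were called by edgeR, DESeq2 or limma-voom. At an unadjusted p under 0.05 the smooth muscle list had 1 lower gene, Rgs5, and the others 0. No lymphocyte marker had enough reads for a test, and their list summed to at most 0.721 CPM. The part of fibroblasts, tenocytes and mast cells in the complement levels was not tested.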

How the data were processed

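Poly-A RNA of soleus from 3 HET and 3 WT mice was sequenced as stranded single-end libraries, 1 per mouse. The authors aligned reads with STAR 2.7.3a to GRCm38.p6 and deposited raw counts per gene made with featureCounts 2.0.3 in reverse-stranded mode, in which reads that map to several places or genes are left out. The authors also deposited a normalized signal, for 16247 genes, in which each library's raw counts are divided by its DESeq2 size factor (0.773 to 1.42), used here to find the genes by symbol. The deposited fold changes and p-values of the authors' own comparison were not used. No column lacked a sample (0 left out).

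Genes of the count table (51912, of which 51719 were named from GENCODE M21) were kept by filterByExpr with a minimum count of 10, scaled by TMM and compared between genotypes in edgeR 4.0.16 by its quasi-likelihood test with robust dispersion (two-sided, Benjamini-Hochberg over all genes tested, threshold 0.05) in R 4.3.3. Summaries were computed in Python 3.11.15. CPM and RPKM use TMM library sizes. RPKM uses the exonic length in the deposited table. Log2 CPM had a prior count of 2. The standard error is the log2 fold change over the square root of F. The steps were tested on simulated data. DESeq2 1.42.0, limma-voom (limma 3.58.1), other scaling, filters, a replicate block, length and GC offsets and each library left out were alternatives, and 1 more, without HET2 and WT3, was chosen after seeing the data. GC content was known for 14672 of 14696 tested genes.

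The 9 genes and all lists were chosen with earlier results of these data known. Named were the 9, the highest, lowest and (per length) most expressed tested gene of each complement list, other complement genes past the threshold, the 5 nearest genes to the C1q profile, the extremes of the C1q-domain family, the paralogs C1rb, C1s2 and C4a, markers past the threshold or at 0, and Mustn1 and sex genes as checks. Other genes are named after their values were seen. A complement gene that the rule would name is not reported here and enters only counts and medians. Mice are said to be littermates without giving which shared a litter. The p-values set the genotype difference against the spread between these mice, taken as independent. Libraries of a genotype differed by more than counting noise, at 16.6 to 47.5 for the chi-square per gene.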

Additional observations from a re-analysis of the deposited data

How the results depend on the processing

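All 170 alternative values of the log2 fold changes of the 9 genes, over 19 alternatives, lay above 0, between 0.22 and 2.23, with C1qa between 1.41 and 1.55 and C4b between 1.30 and 2.20. Only C1s1 without HET2 and WT3 (0.52) moved by more than the spread between mice (SD 0.18 for C1s1). That allowance was 0.09 for C1qa and 0.72 for C4b, so it was wide for genes that varied much. Leaving a mouse out of so small a group can hardly shift a value by more than this spread. Those fits therefore could not decide whether the values are stable, and only the ranges are given. Counts of calls changed with the setting, and the cause was not tested.

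Genes called higher and lower (21 and 1 in the report) were 386 and 18 with no filter, 218 and 8 with DESeq2, 3 and 0 with limma-voom, 6 and 0 with non-robust dispersion, 7 higher with the GC trend removed, and 50 and 8 without HET2 and WT3. Of the 9 genes, those called (2) were 4 with no filter, where 386 of 29081 genes were called higher. They were 5 with DESeq2 (1.51% of all genes called higher) and 1 with limma-voom (0.0204%). Other complement genes called (0) were 5, 3 and 0 with no filter, DESeq2 and limma-voom, and 1 without HET2 and WT3. Their median (0.37) was 0.21 with at least 10 counts in every library and 0.23 without HET2 and WT3. C1q-domain genes called (1) were 6, 4 and 0 with no filter, DESeq2 and limma-voom, 0 with non-robust dispersion or the GC trend removed, and 3 without HET2 and WT3. Cell type markers called (4) were 24, 16 and 1 with no filter, DESeq2 and limma-voom, 1 with non-robust dispersion or the GC trend removed, and 14 without HET2 and WT3. Mustn1 missed the threshold with limma-voom (-0.99) and non-robust dispersion (-0.96).

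Whether the replicate numbers pair the mice could not be told. Deviations of same-numbered mice correlated at 0.203, -0.006 and -0.035. The value of HET1 with WT1 was the highest of any HET and WT pair, and HET2 and HET3 correlated best with another number. Such correlations cannot exclude shared litters or batches. With the replicate block, genes called were 114 and 2 (94 and 2 with the GC trend removed, 128 and 2 with the length trend removed). Under the same 3 paired fits, other complement genes called were 1, 0 and 1, C1q-domain genes 3, 2 and 3, and markers 15, 13 and 17.

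With each library left out in turn, between 14756 and 15189 genes were tested. Genes called ranged from 0 to 77 higher and 0 to 6 lower, those of the 9 from 0 to 3, other complement genes from 0 to 2 with medians from 0.22 to 0.46, C1q-domain genes from 0 to 2, markers from 0 to 10, and Mustn1 from -1.09 to -0.88. Cd93 ranged from -0.16 to 0.16. With a prior count of 0.5, 4 of the 5 genes nearest to the C1q chains were shared. Depth limits C5ar1 and C3ar1 most, with 9 to 27 reads in WT.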
